A study of Homo sapiens with 12 samples.

Results

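The genes described here are MYC and the genes of ribosome biogenesis, 46 genes listed by name for their known roles, with earlier results of these data known. They comprise MYC and its dimer partners MAX, MXD1, MXI1 and MXD4, nucleolar proteins and assembly factors of both ribosomal subunits, 4 subunits of RNA polymerase I, the polyamine enzymes ODC1 and SRM, and CAD, HSPE1, PA2G4 and TFRC, which are known MYC targets. Of the 46 genes 40 were measured, out of 19775 genes measured in all. MXD4, DKC1, NOP56, BOP1 and PPAN lie on probe sets whose annotation carries several gene symbols, GNL3 has no probe set in the annotation used, and these 6 genes were not analysed here. The cells were OCI-Ly7, an established line of B-cell non-Hodgkin lymphoma, so that every value comes from a single cell line. They were treated for 24 hours with PLS-123 at 1 µM, with ibrutinib at 1 µM or 10 µM, or with vehicle, and each of the 4 groups had 3 samples, labelled A, B and C. Ibrutinib and PLS-123 are both irreversible inhibitors of Btk, the kinase that carries the signal of the B-cell receptor. Total RNA of each sample was read on its own Affymetrix U133 Plus array, and nothing in the labels ties the samples A, B and C to separate cultures, so the p values measure the spread between these samples, which may be technical.

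MYC is a transcription factor that pairs with MAX and binds the E-box, the letters CACGTG, near the starts of its target genes. MXD1 and MXI1 also pair with MAX, and their dimers repress genes that MYC activates. Genes of ribosome biogenesis are among the best known targets of MYC in lymphoid cells: RNA polymerase I makes the precursor of ribosomal RNA in the nucleolus, small nucleolar ribonucleoproteins (snoRNPs) modify and help cleave it, and separate sets of assembly factors build the small and the large subunit. Polyamines, whose synthesis starts with ODC1, are needed for translation and cell growth.

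The array has 1 or several probe sets for a gene, each a set of short probes to its transcript, and a gene was represented by its brightest probe set with a single symbol. Values are linear intensities in arbitrary units, and the level of 1 gene is not set against that of another, except to rank probe sets by brightness. Differences are on the log2 scale with their standard error (SE), from limma fitted to all 12 arrays, with p values adjusted over all 54613 probe sets (Benjamini-Hochberg). A gene is called lower or higher at an adjusted p under 0.05. A probe set is termed dim where its mean is below a log2 intensity of 3.87, which is the middle of all probe sets, and none of the 40 members was dim. All 7 measured B-cell markers were above the dim level in these cells, as were 1 of 8 T and NK cell, 2 of 6 myeloid and 3 of 8 stromal and epithelial markers. The summed intensity of the B-cell markers was lower with PLS-123 (11880.5 to 12459) and with 10 µM ibrutinib (12303 to 12509.5) than with vehicle (15605 to 16293), and was 15749.6 to 16383 with 1 µM ibrutinib. The markers did not all move together. The mean log2 intensity of MME was 10.82 with PLS-123 and 10.58 with 10 µM ibrutinib, against 9.13 with vehicle. That of CD79B was 11.49 and 11.46, against 11.18. The means of MS4A1, CD79A, PAX5, CD22 and BCL6 were lower than with vehicle in both groups. BCL6 had 10.31 and 10.44, against 11.77, and CD22, which fell most, 7.97 and 8.24, against 10.11. The sum is led by the bright probe sets. Its part in the differences of the members was not tested.

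RNA quality moved with the treatments. ACTB has control probe sets for its 3′ end and its 5′ end, and the log2 difference between them grows as RNA is shortened. This difference was 2.93 ± 0.20 (SD, n = 3) with PLS-123, 2.67 ± 0.18 with 1 µM ibrutinib and 2.74 ± 0.08 with 10 µM ibrutinib, against 2.64 ± 0.04 with vehicle. The 3 PLS-123 arrays read 2.83, 2.80 and 3.17, all above the vehicle arrays at 2.68, 2.59 and 2.65, and array C stood highest of the 12. The 10 µM ibrutinib arrays, at 2.69, 2.70 and 2.83, were also all above the vehicle arrays, by less. Among the arrays of 1 µM ibrutinib, array A had 2.87 and the others 2.55 and 2.58. The same difference for GAPDH was 0.45 ± 0.02 with PLS-123, 0.27 ± 0.03 with 1 µM ibrutinib and 0.39 ± 0.01 with 10 µM ibrutinib, against 0.31 ± 0.04 with vehicle, and neither the PLS-123 nor the 10 µM ibrutinib arrays overlapped the vehicle arrays. In RNA from bulk cells such as these, fewer cells with a transcript and less transcript per cell cannot be told apart.

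Many of the ribosome assembly genes were lower with PLS-123 by small amounts, and MYC itself was not. Against vehicle, 19 of the 40 members fell and 1, MXI1, rose, beside 12.8% of all genes called lower and 7.54% called higher. Among genes that were not dim, as all members were, 19.8% were called lower and 11.2% higher. The members were brighter than most of these genes, at a median percentile of 90.7 among all genes measured. Genes of like brightness were not set beside them, here or in the other comparisons with genes not dim. The median log2 difference of the members was -0.22, against -0.06 for all genes not dim. By number, small subunit assembly had the most falls, with 8 of 9 members lower, followed by large subunit assembly with 5 of 9. Both polyamine enzymes fell, and 2 of 4 other MYC targets, 1 of 4 RNA polymerase I subunits and 1 of 4 snoRNP proteins did. None of the 4 abundant nucleolar proteins and none of the 4 measured members of the MYC network was called lower. These counts by role rest on the brightest probe sets. A dimmer probe set called NOLC1 and DDX21 of the abundant nucleolar proteins, MAX of the MYC network, and POLR1A and POLR1C lower. The falls were modest: POLR1E alone fell by more than 1.5-fold and MXI1 alone rose by more, beside 2.86% and 3.39% of all genes. The 3 PLS-123 arrays were all below the 3 vehicle arrays for 26 members and all above them for 8, beside 24.5% and 14.3% of all genes. Of the called members 95% were lower, 78.9% after quantile normalization, and 83.3% or 95.5% after centring on the mean or the median of 100 control probe sets. Of all called probe sets 62.0% were lower, and 52.4%, 53.7% and 72.5% under those scalings.

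With a term for RNA quality in the fit, most of these calls no longer passed. With each array's ACTB difference added to the fit as a covariate, 3 of the 19 members were still called lower, POLR1E, BYSL and ODC1, and MXI1 was still higher. All 19 stayed negative, the median of the members was -0.18, and the adjusted p of the 16 lost calls ran between 0.0502 and 0.501. Under the same covariate the genes called lower across the array numbered 847, against 2536 without it. Because all PLS-123 arrays had a larger ACTB difference than all vehicle arrays, the treatment and the RNA quality are partly the same contrast. Leaving out 1 array at a time kept 13 of the 19 calls every time, and the others lost theirs at an adjusted p of up to 0.149. The calls of NOB1 and DDX10 were lost without PLS-123 array C or without vehicle array A, that of NOB1 also without vehicle array B or C, and that of RRP12 without vehicle array B. NOP2 and WDR74 lost theirs without PLS-123 array B or C or vehicle array B or C, WDR74 also without vehicle array A, and PES1 without PLS-123 array A or C or vehicle array A or B. The count was 14 without PLS-123 array C or without vehicle array B.

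**Figure D1:**
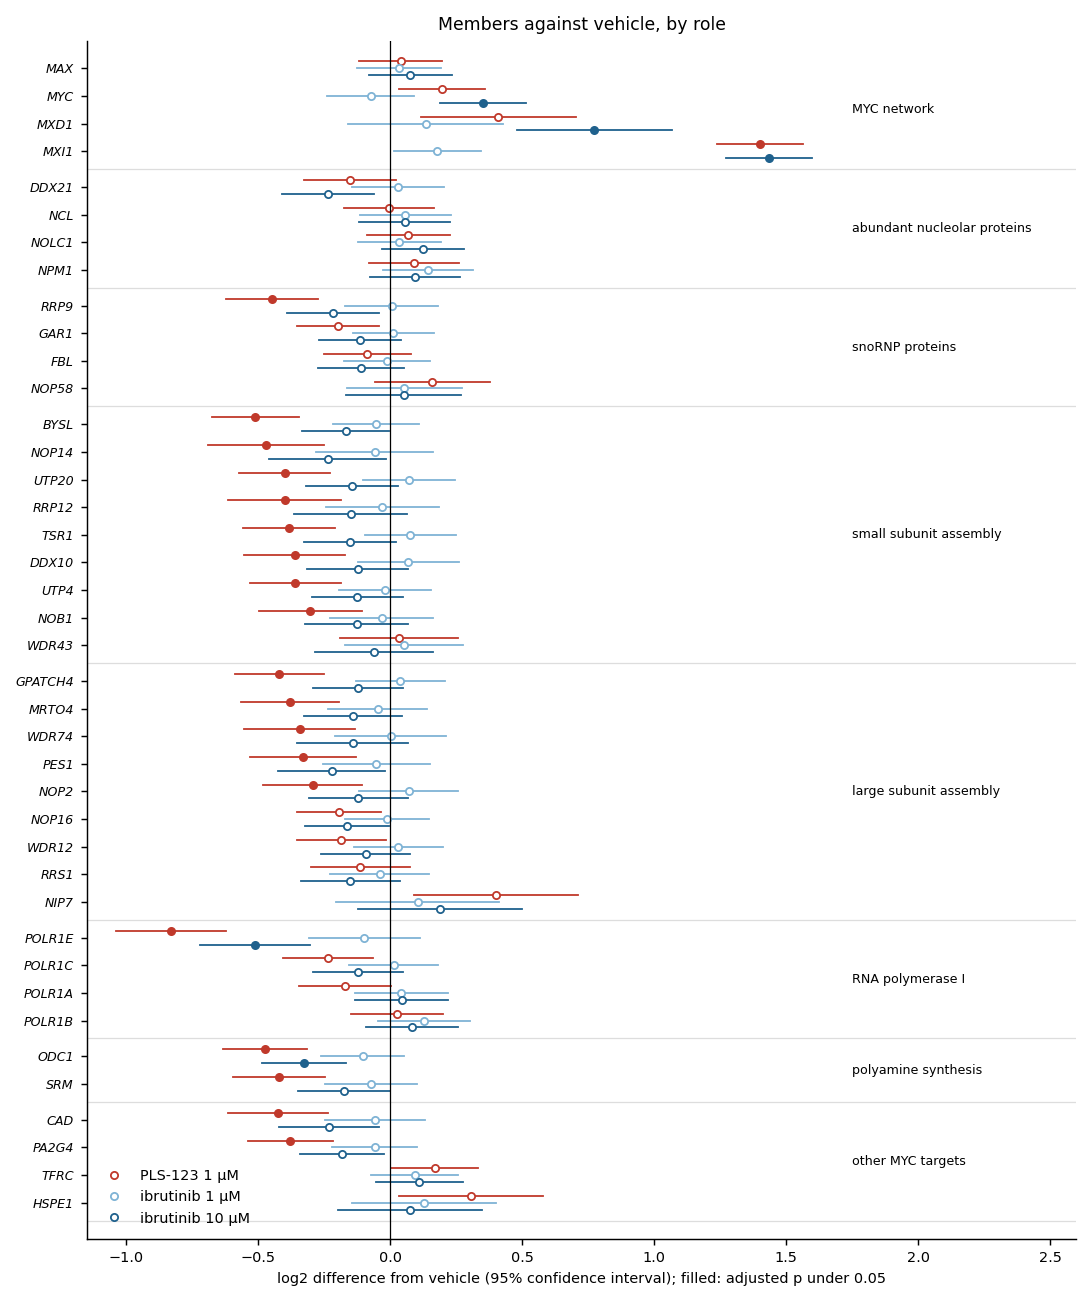
Log2 difference from vehicle (horizontal axis) of the 40 measured members, grouped by role (vertical axis), for PLS-123 1 µM, ibrutinib 1 µM and ibrutinib 10 µM. Points are differences of group means over 3 arrays, lines their 95% confidence intervals and filled points an adjusted p under 0.05. PLS-123 has 19 filled points left of 0 and 1 right of it, 10 µM ibrutinib has 2 and 3, and 1 µM ibrutinib has none.

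**Figure D2:**
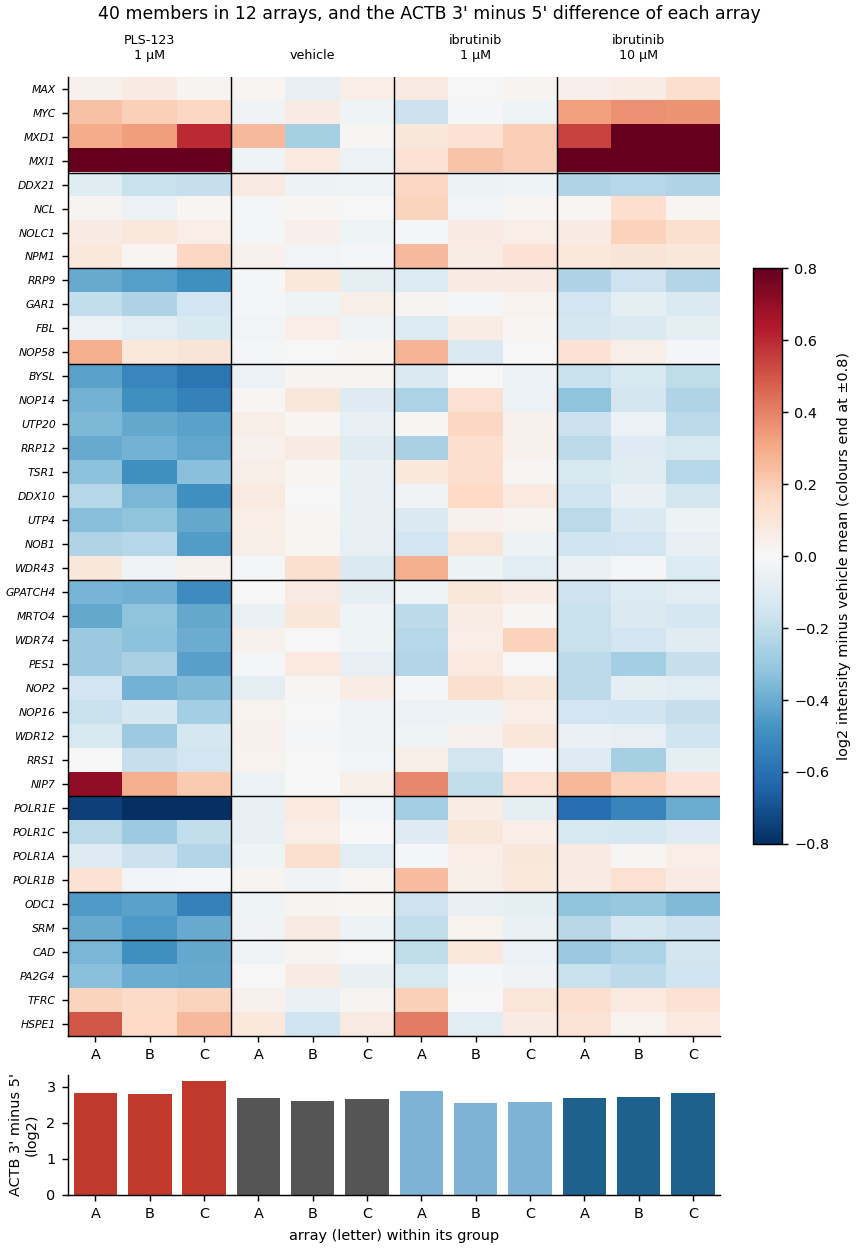
Log2 intensity minus the vehicle mean for the 40 members (rows, in the order of the plot by role) in each of the 12 arrays (columns, letters within a group), with colours that end at ±0.8, and below it the ACTB 3′ minus 5′ difference (log2) of each array as bars. Most assembly factor rows are blue in the PLS-123 columns and pale in the 1 µM ibrutinib columns, and the tallest bar, 3.17, is that of PLS-123 array C.

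Within the MYC network, MXI1 rose strongly with PLS-123 and with 10 µM ibrutinib, and MYC rose with 10 µM ibrutinib. *MYC* read 2335, 2260.3 and 2220.0 with PLS-123, against 1944, 2074 and 1931 with vehicle. With 1 µM and 10 µM ibrutinib MYC read 1757, 1962 and 1939 and then 2490.2, 2552 and 2544. The PLS-123 arrays were all above the vehicle arrays, and those of 10 µM ibrutinib were above both. The log2 difference from vehicle was 0.20 ± 0.08 with PLS-123 (adjusted p = 0.1, 95% interval 0.03 to 0.36), which did not pass, and 0.35 ± 0.08 with 10 µM ibrutinib (adjusted p = 0.00821), which did. MYC passed with PLS-123 as well under 3 alternatives, limma with an intensity trend, quantile normalization and a fit without dim probe sets (adjusted p 0.00616, 0.0372 and 0.0312).

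MXI1, a partner of MAX in repressor dimers, was the member that changed most. *MXI1* read 471, 513 and 490.3 with PLS-123, against 181, 196 and 179.9 with vehicle. It read 201, 217 and 213 with 1 µM ibrutinib and 498, 505 and 503 with 10 µM. The groups split into a high pair, PLS-123 and 10 µM ibrutinib, and a low pair, 1 µM ibrutinib and vehicle, with a wide gap between them. MXI1 was 2.64-fold higher with PLS-123 (log2 difference 1.40 ± 0.08, adjusted p = 3.00e-08) and 2.7-fold higher with 10 µM ibrutinib (1.43 ± 0.08, adjusted p = 2.35e-08) than with vehicle. *MXD1* read 26.6, 27.2 and 32.6 with PLS-123, against 25.8, 18.0 and 21.7 with vehicle. Its arrays of 1 µM ibrutinib read 23.0, 23.4 and 24.8 and those of 10 µM 31.4, 41.4 and 38.8, so that vehicle array B was the lowest and the 10 µM arrays reached the highest values. MXD1, a further repressive partner of MAX and close to the dim level, rose with 10 µM ibrutinib (0.77 ± 0.14, adjusted p = 0.00179) and differed by 0.41 ± 0.14 with PLS-123 (adjusted p = 0.056). *MAX* read 1178, 1207 and 1167 with PLS-123, against 1165, 1098 and 1194 with vehicle. With ibrutinib it read 1212, 1153 and 1170.3 at 1 µM and 1185, 1198 and 1263 at 10 µM. The arrays of MAX, the shared partner, overlapped in each comparison with vehicle (PLS-123 difference 0.04 ± 0.07, adjusted p = 0.78).

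**Figure D3:**
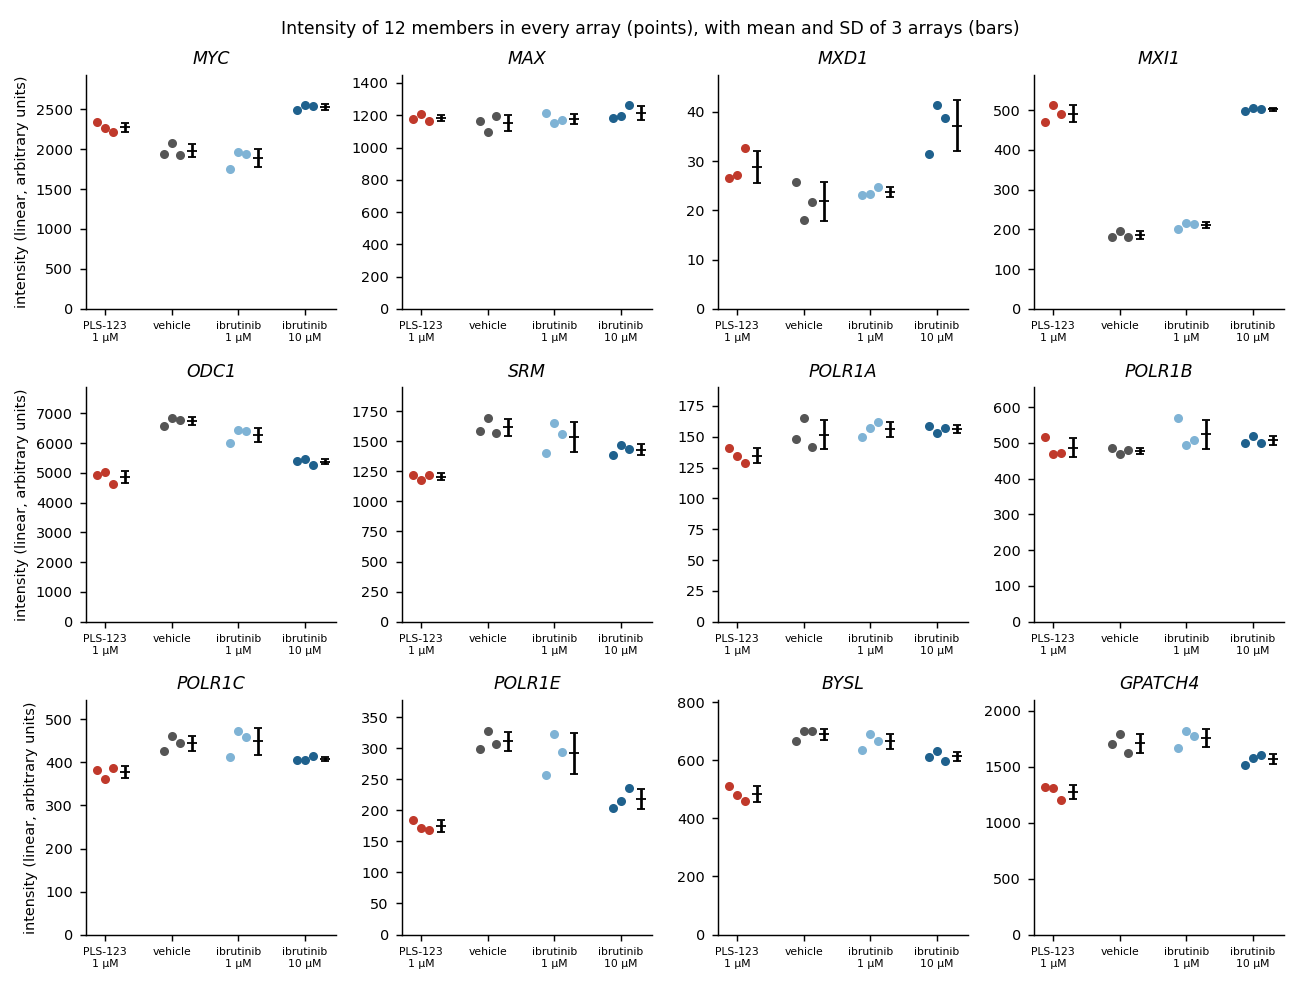
Linear intensity (vertical axes, arbitrary units, from 0) of 12 members in each array, with groups PLS-123 1 µM, vehicle, ibrutinib 1 µM and ibrutinib 10 µM along each horizontal axis. Points are arrays and the bars beside them mean and SD of 3 arrays. MXI1 is between 471 and 513 with PLS-123 and between 179.9 and 196 with vehicle, and POLR1E and ODC1 are lowest with PLS-123.

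Both polyamine enzymes fell with PLS-123, and ODC1 fell with 10 µM ibrutinib as well. *ODC1* read 4923, 5013 and 4623 with PLS-123, against 6581, 6844 and 6781 with vehicle. ODC1, ornithine decarboxylase, makes putrescine and limits the rate of the pathway. With ibrutinib it read 5998, 6424 and 6389.8 at 1 µM and 5385, 5449 and 5274 at 10 µM, and the values of the 4 groups did not overlap. The log2 difference from vehicle was -0.47 ± 0.07 with PLS-123 (adjusted p = 0.000509), -0.33 ± 0.07 with 10 µM ibrutinib (adjusted p = 0.0102) and -0.10 ± 0.07 with 1 µM ibrutinib (adjusted p = 0.92), the last not passing. *SRM* read 1220.2, 1175 and 1222 with PLS-123, against 1585, 1694 and 1567 with vehicle. SRM, spermidine synthase, acts on the product of ODC1. Its ibrutinib arrays read 1406, 1649 and 1557 at 1 µM and 1382, 1470.4 and 1436 at 10 µM. SRM fell with PLS-123 (-0.42 ± 0.08, adjusted p = 0.00259), with no overlap of PLS-123 and any other group, and differed by -0.18 ± 0.08 with 10 µM ibrutinib (adjusted p = 0.23). With the ACTB covariate ODC1 stayed lower with PLS-123 and SRM did not (adjusted p = 0.0751).

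Of the RNA polymerase I subunits, POLR1E fell most and the others were not called on their brightest probe sets. *POLR1E* read 185, 171 and 168 with PLS-123, against 298, 328 and 306 with vehicle. POLR1E forms with a partner subunit a heterodimer particular to this polymerase. Its ibrutinib arrays read 257, 323 and 294 at 1 µM and 204, 216 and 235 at 10 µM. PLS-123 arrays were the lowest of all 12, those of 10 µM ibrutinib came next, and both sets were below vehicle. The log2 difference was -0.83 ± 0.10 with PLS-123 (adjusted p = 4.61e-05, a 1.78-fold fall) and -0.51 ± 0.10 with 10 µM ibrutinib (adjusted p = 0.00315). With the median level over its probe sets in place of the brightest, neither passed (adjusted p 0.0571 and 0.313). That median is the level of the probe set of middle brightness, which gave -0.28 with PLS-123 and -0.17 with 10 µM ibrutinib. The dimmest probe set, close to the dim level, was called lower with PLS-123 (-0.62, adjusted p = 0.00629). With 10 µM ibrutinib the dimmest gave 0.006 and was not called. *POLR1A* read 141, 134 and 129 with PLS-123, against 148, 165 and 142 with vehicle. POLR1A is the largest, catalytic subunit. It read 149.5, 157 and 162 with 1 µM ibrutinib and 159, 152.7 and 157 with 10 µM, and its PLS-123 arrays were below the vehicle arrays by a narrow margin (-0.17 ± 0.08, adjusted p = 0.184). *POLR1C* read 383, 362 and 388 with PLS-123, against 427, 462 and 445 with vehicle. The ibrutinib arrays of POLR1C, a subunit shared with RNA polymerase III, read 413, 474 and 460.0 at 1 µM and 406, 405 and 414 at 10 µM. PLS-123 and vehicle did not overlap, and the difference of -0.23 ± 0.08 missed the threshold (adjusted p = 0.0594). *POLR1B* read 518, 470.2 and 472 with PLS-123, against 485, 469 and 480.3 with vehicle. With ibrutinib POLR1B, the other large catalytic subunit, read 569.6, 495 and 507 at 1 µM and 499.8, 520.5 and 499.8 at 10 µM. The PLS-123 and vehicle arrays overlapped, at a difference of 0.02 ± 0.08 (adjusted p = 0.882, 95% interval -0.15 to 0.20).

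In small subunit assembly 8 of 9 members fell. BYSL, UTP20, UTP4, NOP14, RRP12, TSR1, NOB1 and DDX10 fell with PLS-123, by 0.30 to 0.51 on the log2 scale, and for each of the 8 all PLS-123 arrays were below all vehicle arrays. *BYSL* read 513, 481 and 459.7 with PLS-123, against 667, 701 and 700.5 with vehicle. BYSL, bystin, is needed for late maturation of the small subunit. With ibrutinib it read 636, 690.2 and 667 at 1 µM and 611, 630.2 and 599 at 10 µM, and the PLS-123 arrays stood apart below all others. Its log2 difference was -0.51 ± 0.08 with PLS-123 (adjusted p = 0.000385) and -0.17 ± 0.08 with 10 µM ibrutinib (adjusted p = 0.219). *UTP20* read 537, 519.6 and 512 with PLS-123, against 712, 698 and 659 with vehicle. UTP20 is a scaffold of the early precursor particle. It read 695, 774 and 707 with 1 µM ibrutinib and 612, 668 and 595 with 10 µM, where 1 array reached into the vehicle range. UTP20 fell with PLS-123 by 0.40 on the log2 scale (SE 0.08, adjusted p = 0.00351). *TSR1* read 449, 401 and 446 with PLS-123, against 581, 568 and 540.0 with vehicle. TSR1 holds the late precursor in a form that cannot yet translate. Its ibrutinib arrays read 596, 619 and 567 at 1 µM and 514, 526 and 481 at 10 µM, and it fell with PLS-123 by 0.38 (SE 0.08, adjusted p = 0.00479). The dimmer probe sets of TSR1 gave -0.19, -0.22 and -0.05 with PLS-123 and were not called. WDR43, an early assembly factor, was the exception in this group, with a difference of 0.03 ± 0.10 (adjusted p = 0.876) and overlapping arrays. With the ACTB covariate BYSL alone of the 8 was still called.

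In large subunit assembly GPATCH4, MRTO4, WDR74, PES1 and NOP2 fell with PLS-123, by 0.29 to 0.42 on the log2 scale. *GPATCH4* read 1320.4, 1306 and 1206 with PLS-123, against 1706, 1797 and 1623 with vehicle. GPATCH4 is a nucleolar cofactor of RNA helicases. It read 1667, 1821 and 1776 with 1 µM ibrutinib and 1519.8, 1581 and 1606 with 10 µM, all above the PLS-123 arrays (difference from vehicle -0.42 ± 0.08, adjusted p = 0.00219). *MRTO4* read 1173, 1247 and 1169.9 with PLS-123, against 1498, 1654 and 1520.0 with vehicle. MRTO4 keeps the place of the ribosomal stalk on the precursor. Its ibrutinib arrays read 1347, 1619 and 1565 at 1 µM and 1376, 1438 and 1419 at 10 µM, and it fell with PLS-123 by 0.38 (SE 0.09, adjusted p = 0.00808). *PES1* read 655, 675 and 597 with PLS-123, against 800.3, 851 and 770.5 with vehicle. PES1 works in a complex with BOP1 and WDR12. With ibrutinib it read 685, 849.9 and 809 at 1 µM and 697, 667 and 711 at 10 µM, where all 10 µM arrays were below the vehicle arrays and 1 lay within the PLS-123 range. It fell with PLS-123 (-0.33 ± 0.09, adjusted p = 0.0266), with an adjusted p of 0.112 without PLS-123 array C. WDR12 (difference -0.19), NOP16 (-0.19) and RRS1 (-0.11) were not called, nor was NIP7, at 0.40 ± 0.14 (adjusted p = 0.0751). None of the 5 calls was kept with the ACTB covariate.

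The snoRNP proteins and the abundant nucleolar proteins had 1 call in 8 with PLS-123 on their brightest probe sets. It was RRP9, a protein of the snoRNP that guides the early cleavages of the precursor. *RRP9* read 67.3, 65.6 and 63.3 with PLS-123, against 88.5, 94.7 and 84.5 with vehicle. With ibrutinib RRP9 read 82.7, 93.2 and 93.2 at 1 µM and 75.0, 79.5 and 75.8 at 10 µM. It fell with PLS-123 (-0.45 ± 0.08, adjusted p = 0.00173), and the 10 µM arrays lay between the PLS-123 and the vehicle arrays without touching either (-0.22 ± 0.08 from vehicle, adjusted p = 0.128). *GAR1* read 581, 561 and 598 with PLS-123, against 658, 649 and 687 with vehicle. GAR1 belongs to the snoRNPs that guide pseudouridine formation, and it read 676, 658 and 677 with 1 µM ibrutinib and 598, 629.6 and 615 with 10 µM. *NOP58* read 2645, 2288 and 2321 with PLS-123, against 2136, 2156 and 2187 with vehicle. NOP58 and FBL belong to the snoRNPs that guide methylation, and the ibrutinib arrays of NOP58 read 2606, 1992 and 2166 at 1 µM and 2338, 2233 and 2142 at 10 µM. None of these 3 was called with PLS-123, at -0.20 ± 0.07 for GAR1 (adjusted p = 0.0805), 0.16 ± 0.10 for NOP58 (adjusted p = 0.33) and -0.09 ± 0.08 for FBL (adjusted p = 0.51).

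*NPM1* read 7566, 7226 and 8022 with PLS-123, against 7298, 7045 and 7079 with vehicle. NPM1, nucleophosmin, is among the most abundant proteins of the nucleolus, and it read 8553, 7452 and 7726 with 1 µM ibrutinib and 7571, 7686 and 7611 with 10 µM. Array A of 1 µM ibrutinib was the highest of the 12, and the PLS-123 and vehicle arrays overlapped (0.09 ± 0.08, adjusted p = 0.509). *DDX21* read 3521, 3329 and 3314 with PLS-123, against 3965, 3665 and 3676 with vehicle. DDX21 is a nucleolar RNA helicase. Its ibrutinib arrays read 4228, 3666 and 3678 at 1 µM and 3184, 3221 and 3194 at 10 µM, where all 3 were below every other array. The difference was -0.15 ± 0.08 with PLS-123 (adjusted p = 0.236) and -0.24 ± 0.08 with 10 µM ibrutinib (adjusted p = 0.0935). A slightly dimmer probe set of DDX21 gave -0.33 with PLS-123 (adjusted p = 0.00728) and -0.26 with 10 µM ibrutinib (adjusted p = 0.0353), and both passed. *NOLC1* read 2259, 2292 and 2244 with PLS-123, against 2143, 2222 and 2112 with vehicle. NOLC1, a phosphoprotein that binds snoRNPs, read 2138, 2255 and 2244 with 1 µM ibrutinib and 2257, 2448 and 2354 with 10 µM. Its PLS-123 arrays were just above the vehicle arrays on this probe set (0.07 ± 0.07, adjusted p = 0.587). NCL, nucleolin, had a 95% interval of -0.18 to 0.17 with PLS-123.

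Of the other MYC targets, CAD and PA2G4 fell with PLS-123, and HSPE1 and TFRC were not called. *PA2G4* read 2130.2, 2037 and 2027 with PLS-123, against 2673, 2813 and 2570.0 with vehicle. PA2G4 is a nucleolar protein that also binds ribosomes. With ibrutinib it read 2459.9, 2651 and 2627 at 1 µM and 2376, 2319 and 2399 at 10 µM, and it fell with PLS-123 by 0.38 (SE 0.07, adjusted p = 0.00303). A dimmer probe set of PA2G4 did not fall, at 0.11 (adjusted p = 0.442) with overlapping arrays. *CAD* read 468, 429.9 and 455 with PLS-123, against 594, 614 and 606 with vehicle. CAD opens pyrimidine synthesis. It read 524, 641 and 586 with 1 µM ibrutinib and 491, 508 and 546 with 10 µM, and only the PLS-123 arrays were below all others (difference from vehicle -0.42 ± 0.09, adjusted p = 0.00435). *HSPE1* read 4022, 3184 and 3416 with PLS-123, against 3028, 2552 and 2998 with vehicle. HSPE1 is a mitochondrial chaperonin. Its ibrutinib arrays read 3789, 2682 and 2979 at 1 µM and 3075, 2913 and 3015 at 10 µM, with array A high in both the PLS-123 and the 1 µM ibrutinib group. The PLS-123 arrays were above the vehicle arrays, and the difference of 0.31 ± 0.13 did not pass (adjusted p = 0.125). TFRC, the transferrin receptor, differed by 0.17 ± 0.08 with PLS-123 (adjusted p = 0.162).

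Ibrutinib at 10 µM changed 5 of the 40 members against vehicle by their brightest probe sets. POLR1E and ODC1 fell and MXI1, MXD1 and MYC rose, beside 5.82% of all genes called lower and 6.71% called higher (9.03% and 10.4% of genes not dim). The 5 calls held without any single array and with the ACTB covariate. Dimmer probe sets of DDX21 (-0.26, adjusted p = 0.0353) and POLR1A (-0.31, adjusted p = 0.0485) were called lower as well. The members had a median log2 difference of -0.12, against -0.01 for all genes not dim, and 27 of the 40 were negative. None of the 18 factors of small and large subunit assembly was called with 10 µM ibrutinib, where their differences ran between -0.24 and 0.19. At 1 µM no member was called against vehicle by limma, the differences ran between -0.10 and 0.18 with a median of 0.02, and 1 member had an unadjusted p under 0.05. No gene of the array was called in that comparison, 0% in either direction.

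At the matched dose of 1 µM, PLS-123 and ibrutinib differed in the ribosome assembly genes. With PLS-123, 17 members were lower and 2 higher than with ibrutinib, beside 10.1% and 5.78% of all genes and 16.1% and 8.54% of genes not dim. The median log2 difference of the members was -0.23, against -0.06 for all genes not dim. The 17 were 7 of the 9 small subunit factors, 4 of the 9 large subunit factors, RRP9, POLR1E, ODC1, SRM, CAD and PA2G4. The differences were -0.73 ± 0.10 for POLR1E (adjusted p = 0.000172), -0.47 ± 0.08 for UTP20 (adjusted p = 0.0014), -0.46 ± 0.08 for BYSL (adjusted p = 0.00119) and -0.37 ± 0.07 for ODC1 (adjusted p = 0.00408). MXI1 was higher by 1.22 ± 0.08 (adjusted p = 1.43e-07) and MYC by 0.27 ± 0.08 (adjusted p = 0.0323), the call of MYC being lost without PLS-123 array A, B or C or 1 µM ibrutinib array A or C (adjusted p of up to 0.0891). The members not called included NPM1, with a 95% interval of -0.23 to 0.11, and POLR1B, with -0.28 to 0.07. This comparison and that with vehicle share the PLS-123 arrays. The count of lower members was 9 without array B of 1 µM ibrutinib and 11 without array C of PLS-123. It was 5 with the ACTB covariate and 8 by limma on these groups alone.

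PLS-123 at 1 µM and ibrutinib at 10 µM differ in dose, and no member was called between them by its brightest probe set (0.142% of all genes lower and 0.0708% higher). NOLC1 and GPATCH4 were called lower with PLS-123 by a dimmer probe set. The unadjusted p was under 0.05 for 16 members, and limma with an intensity trend called 8 lower. The differences of PLS-123 from 10 µM ibrutinib had a median of -0.15, against -0.06 for all genes not dim. Of the 40 members 32 were negative. BYSL differed by -0.34 ± 0.08 (adjusted p = 0.083, 95% interval -0.51 to -0.18) and MXI1 by -0.03 ± 0.08 (95% interval -0.20 to 0.13). Between the doses of ibrutinib, 10 µM against 1 µM, MXI1 (1.25 ± 0.08), MXD1 (0.64 ± 0.14) and MYC (0.42 ± 0.08) were higher and POLR1E (-0.41 ± 0.10, adjusted p = 0.0163) lower, beside 5.27% and 4.46% of all genes. The call of POLR1E was lost without array A or B of 10 µM ibrutinib or array B or C of 1 µM ibrutinib, at an adjusted p of up to 0.0733.

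The same pattern extended over further genes of ribosome assembly, while none of the measured ribosomal protein genes was called. Of 47 other small subunit factors measured, 21 fell with PLS-123 and none rose, with a median of -0.27. The ones with the smallest adjusted p were PNO1 (-0.64), BUD23 (-0.61), RRP7A (-0.64) and EMG1 (-0.54), of which BUD23 and EMG1 methylate the small subunit RNA. Of 46 other large subunit factors 18 fell and none rose, with a median of -0.24, among them MAK16 (-0.64), RPF2 (-0.60), LYAR (-0.54) and DDX56 (-0.47). Other genes listed with the snoRNPs and their assembly had 4 of 13 lower, NUFIP1 (-0.36), SHQ1 (-0.33), RUVBL1 (-0.29) and TCOF1 (-0.33). Of 16 other genes listed for RNA polymerase I and its transcription TAF1B (-0.59), part of the promoter selectivity factor, was the only call. That list did not include TCOF1. Of 79 cytosolic ribosomal protein genes listed 53 were measured. None of the 53 was called in either direction with PLS-123, 10 µM ibrutinib or 1 µM ibrutinib, at a median of 0.04 with PLS-123. An unadjusted p under 0.05 was seen for 1 of the 53 with PLS-123. The lists were assembled with results of these data known, and the whole set of genes not dim had 19.8% lower and 11.2% higher. With the ACTB covariate 8 of the 47, 4 of the 46, none of the 13 and 2 of the 16 were called lower, where the genes not dim numbered 821 lower of 12040. With 10 µM ibrutinib 9 of the 47 and 5 of the 46 fell, beside 9.03% of genes not dim, a share close to that of the 46.

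Further genes of polyamine metabolism, nucleotide synthesis and the MYC program were mixed. In polyamine metabolism 6 of 16 fell with PLS-123 and 2 rose, where all genes not dim had 19.8% lower and 11.2% higher. Those that fell included SAT1 (-0.50), which acetylates polyamines for breakdown and export, DOHH (-0.60), which completes the hypusine of the translation factor eIF-5A, and ARG2 (-0.55), which makes ornithine, and the transporter ATP13A3 (0.56) rose. In purine and pyrimidine synthesis 4 of 16 fell and 2 rose, with CTPS2 (0.96) and CTPS1 (-0.44), alternative enzymes for making CTP, moving in opposite directions. ADSL (-0.32) and IMPDH2 (-0.30), both of purine synthesis, fell. Of 36 further MYC target genes 11 fell and none rose, with TERT (-0.83), SLC7A5 (-0.62), PHB1 (-0.57) and CDC25A (-0.55) in front. Of 12 further members of the MYC and MAX family and its regulators MLXIP (0.71) rose, and MLX (-0.35), FBXW7 (-0.35) and MLXIPL (-0.37) fell. Among 9 genes of iron uptake and storage FTL (-0.38), ferritin light chain, was the only call. The shares that fell in nucleotide synthesis and in the MYC and MAX family, 25% each, were near that of all genes not dim. With 10 µM ibrutinib CTPS2 (0.93) and MLXIP (0.66) rose, SAT1 (-0.47), TERT (-0.55) and SLC7A5 (-0.27) fell, and CTPS1 (-0.18) was not called.

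**Figure D4:**
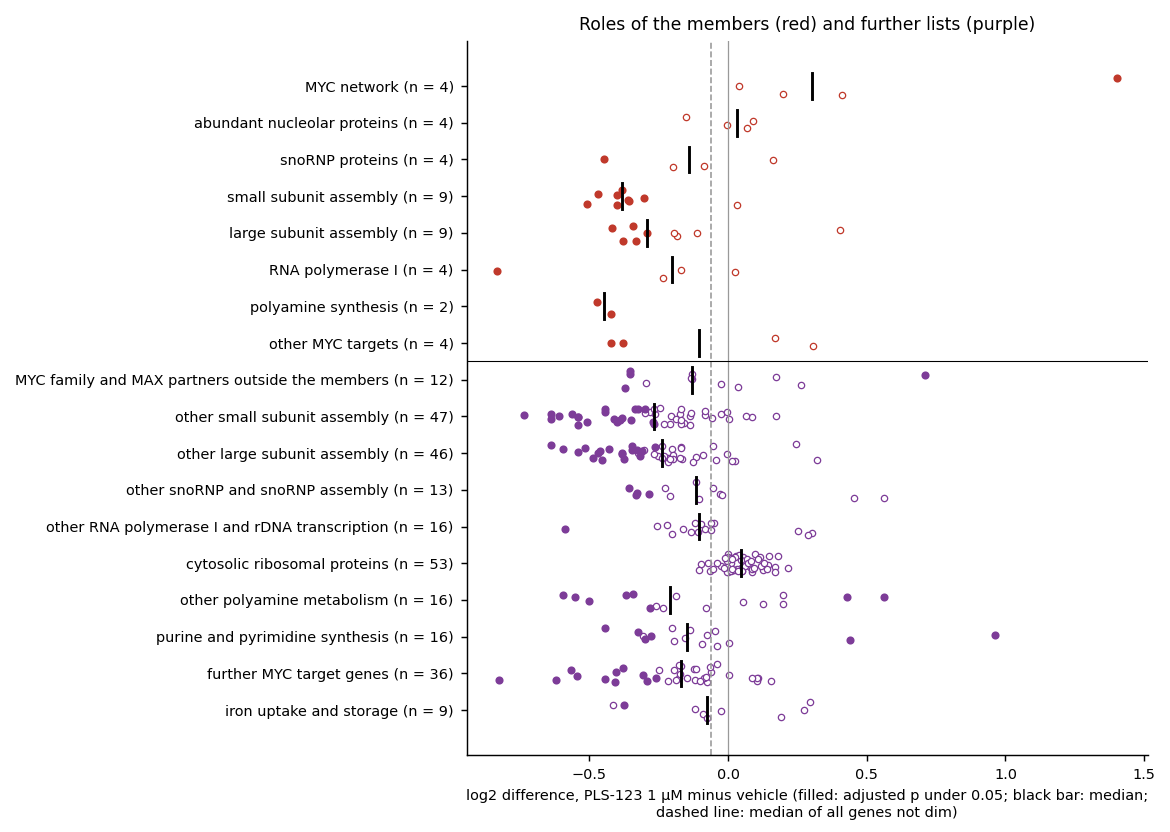
Log2 difference, PLS-123 1 µM minus vehicle (horizontal axis), of every measured gene in the roles of the members (red) and in further lists (purple), with n after each name. Filled points have an adjusted p under 0.05, black bars are medians and the dashed line is the median of all genes not dim, -0.06. Both further assembly lists lie mostly left of the line, at medians of -0.27 and -0.24, and the 53 ribosomal proteins cluster around 0.04 with no filled point.

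Probe sets of a gene did not always give the same value. The 40 members have 89 probe sets with a single symbol, and 24 members have several. No member had probe sets called in opposite directions in any of the 6 comparisons. With PLS-123 against vehicle, MAX, NOLC1, DDX21, POLR1A and POLR1C were called lower by a dimmer probe set and not by the brightest. NOLC1 differed most: its brightest probe set gave 0.07, and the dimmer ones gave -0.43 (adjusted p = 0.00366) and -0.83 (adjusted p = 2.93e-05). A dimmer probe set of POLR1A gave -0.52 (adjusted p = 0.00151), where the brightest gave -0.17. With the median level over its probe sets WDR74, called lower by the brightest, had a log2 difference of 0.0697 and TFRC had -0.33. Both are the values of the probe set of middle brightness. The dimmest probe set of WDR74 gave -0.30 (adjusted p = 0.0551). A dimmer probe set alone also called NOLC1, DDX21 and POLR1A lower with PLS-123 than with 1 µM ibrutinib. CAD was called lower in this way with 10 µM than with 1 µM ibrutinib. The part of the transcript that each probe set reads was not examined.

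The promoters of the members were searched for the E-box to which MYC and MAX bind, the letters CACGTG. The windows are RefSeq promoters of GRCh38.p14, from 250 bases before to 50 after the transcript start, and the motif reads the same on both strands. Of the 46 members 39 had a window, and 17 of these (43.6%) held an E-box, against 10.9% of the windows of all measured genes and 12.7% of those not dim. Among the measured members, 10 of 17 that fell with PLS-123 (58.8%) and 5 of 17 that did not fall (29.4%) held it. By role the share was 5 of 8 in small subunit assembly, 3 of 9 in large subunit assembly and 0 of 3 in RNA polymerase I. In the further lists it was 17 of 42 for small subunit factors, 14 of 45 for large subunit factors and 4 of 63 for ribosomal proteins. The 17 genes hold 18 matches, of which 16 lie within 50 bases of the start. These counts describe the letters in the windows, with no test, and a match is not a measured binding site. The members were listed by name, known MYC targets among them, so their share above that of all genes says nothing about the treatments.

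These windows are shown from 250 bases before to 30 after the start, 5′ to 3′ on the strand of the gene, with the E-box in capitals. They are the 5 fallen members with the smallest adjusted p whose printed window holds a match, and HSPE1 as a member with a match that did not fall. Their positions are *ODC1* at chr2:10447983-10448262 on the minus strand, *SRM* at chr1:11059989-11060268 on the minus strand, *RRP9* at chr3:51941875-51942154 on the minus strand, *UTP20* at chr12:101279855-101280134 on the plus strand, *NOP14* at chr4:2963377-2963656 on the minus strand, and *HSPE1* at chr2:197500129-197500408 on the plus strand.
ODC1: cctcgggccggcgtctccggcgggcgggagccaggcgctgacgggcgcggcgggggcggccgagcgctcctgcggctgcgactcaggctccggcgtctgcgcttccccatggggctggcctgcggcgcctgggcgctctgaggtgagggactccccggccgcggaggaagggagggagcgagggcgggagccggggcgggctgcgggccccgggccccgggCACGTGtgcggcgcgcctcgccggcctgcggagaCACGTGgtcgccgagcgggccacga
SRM: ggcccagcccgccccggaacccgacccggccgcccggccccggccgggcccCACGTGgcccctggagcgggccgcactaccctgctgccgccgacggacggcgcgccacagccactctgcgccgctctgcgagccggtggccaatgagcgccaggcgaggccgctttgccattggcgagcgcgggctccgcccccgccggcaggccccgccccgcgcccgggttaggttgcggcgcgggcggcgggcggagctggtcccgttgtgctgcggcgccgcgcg
RRP9: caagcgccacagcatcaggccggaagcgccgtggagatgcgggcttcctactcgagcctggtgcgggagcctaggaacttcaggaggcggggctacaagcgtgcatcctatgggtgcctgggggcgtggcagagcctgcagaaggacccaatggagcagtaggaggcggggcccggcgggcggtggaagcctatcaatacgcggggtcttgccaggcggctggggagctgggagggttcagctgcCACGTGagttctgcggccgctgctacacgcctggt
UTP20: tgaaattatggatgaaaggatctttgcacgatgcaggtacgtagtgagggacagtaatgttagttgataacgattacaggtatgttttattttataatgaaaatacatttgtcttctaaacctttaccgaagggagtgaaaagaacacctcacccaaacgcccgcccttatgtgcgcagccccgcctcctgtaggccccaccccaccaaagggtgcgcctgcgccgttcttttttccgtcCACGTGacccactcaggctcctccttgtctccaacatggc
NOP14: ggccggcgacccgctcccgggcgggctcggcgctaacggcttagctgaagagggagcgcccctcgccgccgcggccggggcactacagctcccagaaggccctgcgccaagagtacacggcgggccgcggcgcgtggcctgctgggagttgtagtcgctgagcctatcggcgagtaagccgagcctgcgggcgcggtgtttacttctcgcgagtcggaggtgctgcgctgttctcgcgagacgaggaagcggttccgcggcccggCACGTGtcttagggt
HSPE1: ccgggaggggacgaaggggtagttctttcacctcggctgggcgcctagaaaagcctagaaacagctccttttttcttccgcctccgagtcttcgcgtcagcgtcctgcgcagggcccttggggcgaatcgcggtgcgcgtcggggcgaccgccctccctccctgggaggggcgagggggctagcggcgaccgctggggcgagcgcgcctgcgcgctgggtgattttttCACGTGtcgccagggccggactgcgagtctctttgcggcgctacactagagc

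*ODC1* carries 2 E-boxes, beginning 29 bases before and at base 6 after the start, and the E-boxes of *RRP9*, *UTP20* and *HSPE1* begin 5, 10 and 22 bases before it. That of *NOP14* begins at base 16 after the start and that of *SRM* 199 bases before it. *ODC1* and *HSPE1* thus share the motif close to the start, with log2 differences of -0.47 and 0.31 with PLS-123, the first called and the other not.

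**Figure D5:**
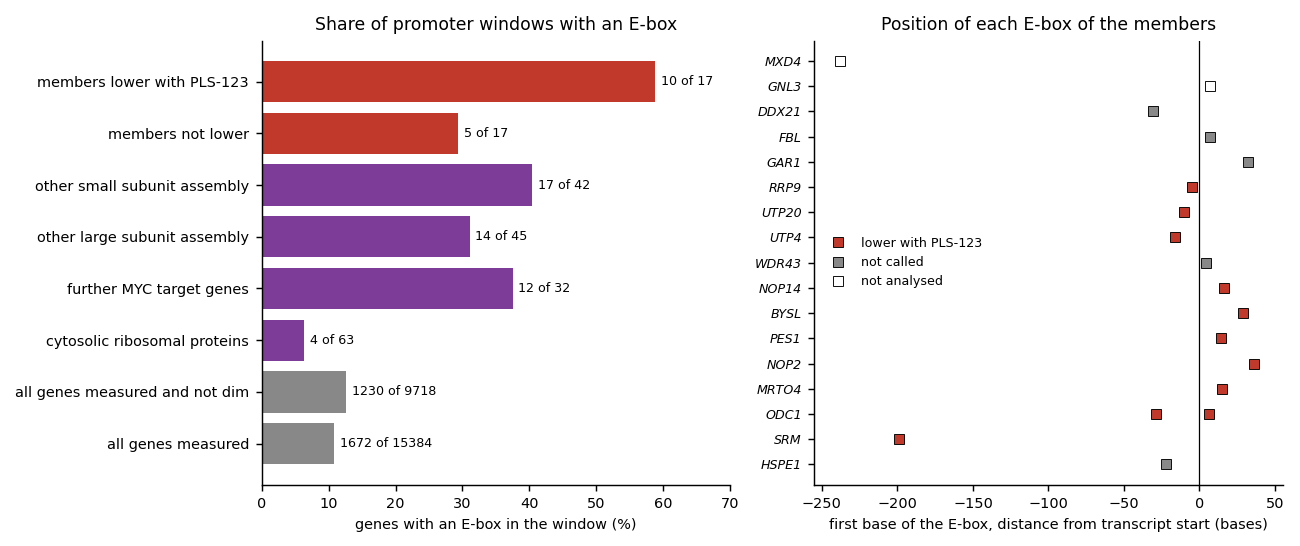
Left, the share of promoter windows with an E-box (horizontal axis, percent) in the members by call with PLS-123, in further lists and in all measured genes, with counts beside the bars. Right, the distance of the first base of each E-box from the transcript start (horizontal axis, bases) for the 17 members that have one. The members that fell have the highest share, 58.8%, and 16 of the 18 matches sit within 50 bases of the start.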

How the data were processed

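The authors deposited an intensity value for each probe set and array. Their processing notes name RMA for the normalization, and its version is not given in the sources used here. The values are on a linear scale, from 2.1 to 15751, with medians per array between 14.2 and 14.8, and log2 was taken with no pseudocount. The table holds 54675 probe sets, of which 54613 were tested and 62 are controls. In the platform annotation 41091 of these carry a single symbol, 1801 carry several and 11721 carry none.

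All 12 arrays entered a single limma fit (version 3.58.1, R 4.3.3) that estimates a mean for each group, with 8 residual degrees of freedom and eBayes moderation. The 6 comparisons between groups were tested two-sided, each adjusted by the Benjamini-Hochberg method over all probe sets. The fit was tested on simulated data. The number of arrays limits the precision. The members and the gene lists were chosen with earlier results of these data known.

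Values in every array are given for the MYC network, the polyamine enzymes, the RNA polymerase I subunits and, in each other role, the 3 members with the smallest adjusted p with PLS-123. Up to 4 called genes of each further list are named. The alternatives were quantile normalization, a fit without dim probe sets, a fit with 1 probe set per gene, the median over a gene's probe sets, the letter of the sample as a block, the ACTB difference as a covariate, limma with a trend on intensity, limma on the compared groups alone, the methods' Student's t test, a fold of 1.5 with an unadjusted p under 0.05, and leaving out each array in turn. Centring on the mean or the median of 100 normalization control probe sets, many of them for ribosomal proteins and 1 for NPM1, was chosen in this form after the data were seen. Promoter windows of 300 bases came from RefSeq (GRCh38.p14), and 39 of the 46 symbols matched.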

Additional observations from a re-analysis of the deposited data

How the results depend on the processing

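Against vehicle, the 19 members lower with PLS-123 became 3 with the ACTB covariate and 1 under a fold of 1.5, and 14 to 20 with 1 array left out. The 1 higher member became 2 by Student's t test and with 1 probe set per gene, 6 with an intensity trend, 4 with quantile normalization or without dim probe sets and 3 with centring on the mean of the control probe sets, and was 1 to 2 with 1 array left out. For 10 µM ibrutinib against vehicle the 2 lower members became 7 with an intensity trend, 4 without dim probe sets and 0 under the fold of 1.5. For PLS-123 against 1 µM ibrutinib the 17 lower members became 5 by Student's t test and with the covariate, 8 on the 2 groups alone and 1 under the fold of 1.5, and ranged between 9 and 20 with 1 array left out. The 2 higher members became 1 by Student's t test, on the 2 groups alone, with centring on the control median, with the covariate and under the fold of 1.5, and 1 to 2 with 1 array left out. For PLS-123 against 10 µM ibrutinib the 0 lower members became 8 with an intensity trend, 2 without dim probe sets or with the median over probe sets and 1 with 1 probe set per gene. Between the doses of ibrutinib the 1 lower member became 6 with an intensity trend or without dim probe sets, 3 with 1 probe set per gene or with the median over probe sets, and 0 by Student's t test, on the 2 groups alone, with centring on the control median and under the fold of 1.5, and 0 to 1 with 1 array left out. The cause of these changes was not tested, apart from the stricter rule of the fold of 1.5.

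With the median over the probe sets of a gene, PLS-123 against vehicle lost 6 calls and gained 4 without a change of sign. In that comparison the sign turned for MAX (-0.49), NOLC1 (-0.43), WDR74 (0.0697) and TFRC (-0.33), of which WDR74 had been called lower. The sign also turned for POLR1A (-0.31) with 10 µM ibrutinib against vehicle, and for NOLC1 (-0.48) and WDR74 (0.0787) with PLS-123 against 1 µM ibrutinib. The median was taken on the levels within each array. For these genes it is the level of the probe set of middle brightness, so each value is that of a single probe set and not a consensus. Sample letters are shared between groups and did not pair the arrays: residuals of the 18 same-letter pairs correlated between -0.25 and 0.22, and 5 exceeded 0.1. With the letter as a replicate block the count of lower members was 18 against vehicle and 16 against 1 µM ibrutinib, where 1 member was higher. All medians of the members kept their sign under the 4 scalings except for 1 µM ibrutinib against vehicle, where centring on the control median gave -0.04.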
